A study of Mus musculus with 8 samples.

Results

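Scn4b encodes the beta-4 subunit of voltage-gated sodium channels and is abundant in medium spiny neurons (MSNs), the inhibitory projection neurons of the striatum. On mouse chromosome 9 it lies among genes best known from other tissues, and 9 of these neighbours are described here across sorted MSNs: Mpzl3, Mpzl2, Amica1, Cd3e, Cd3d, Cd3g, Il10ra, Ube4a and Tmprss4. They were taken by gene name from the non-control probes of the arrays. They have 12 of the 55681 such probes, and the first and last of the 12 lie 330796 bases apart. The genes were chosen with their differences between R6/2 and WT already known, so those differences are given as descriptions, with no test. The question was whether the stretch around Scn4b moves together.

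The series holds 8 arrays. A first group of 4 came from male R6/2;Scn4b-Venus mice and a second group of 4 from male WT;Scn4b-Venus mice, all aged 4 weeks. R6/2 mice model Huntington's disease and carry a transgene holding the first exon of the human huntingtin gene with a lengthened CAG repeat. Venus, a fluorescent protein, reports Scn4b in mice of both groups, and the labels do not say how the reporter was built or which stretch of chromosome 9 it holds. MSNs were sorted as Venus-positive cells that excluded propidium iodide, and about 4 to 20 ng of total RNA was extracted. The labels do not say whether an array holds 1 mouse or several, so p-values measure only the spread between these samples, which may be technical in part.

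The neighbours belong to unrelated families. Mpzl3 and Mpzl2 encode transmembrane proteins with an immunoglobulin-like domain and are known mainly from skin and epithelia. Amica1 (now Jaml) encodes a junctional adhesion molecule of leukocytes that binds the coxsackievirus and adenovirus receptor. Cd3d, Cd3e and Cd3g encode the CD3 chains that carry the signal of the T cell receptor. Il10ra encodes the ligand-binding chain of the interleukin 10 receptor, Ube4a a U-box ubiquitin ligase that extends ubiquitin chains, and Tmprss4 a membrane-bound serine protease of epithelia. None of them is a textbook marker of MSNs.

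Mpzl3 was the neighbour with the largest difference, and its 3 probes did not behave alike, so their targets are shown first. Each probe is 60 bases long, and its first 30 bases as given in the scanner files are printed 5′ to 3′.
A_51_P383530: tccctacttaacgttaaaagttaagcatgt
A_55_P2076550: tgaccaggaggacagcaatgactgcatgac
A_55_P2124891: aagtgtcacctaacaacaggaaatacccat
On the mm9 build of the scanner files, all on the plus strand, A_51_P383530 lies at chr9:44873149-44873208, A_55_P2076550 at chr9:44878742-44878801 and A_55_P2124891 at chr9:44882887-44882946. The array design assigns A_51_P383530 to transcript variant 1 of Mpzl3 (NM_176993, from base 3156) and both others to variant 2 (NM_001093749, from bases 649 and 760). The variant 2 probes are 4085 bases apart in the genome. Their GC content is 55.0% each, against 41.7% for the variant 1 probe. Whether each probe lies in a coding exon or in a UTR was not determined here, since no annotation of this build was used. Over the 12 probes of the neighbours, the longest run of bases shared with a probe of another gene was 13 to 16 bases.

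Values are log2 levels relative to the 75th percentile of the non-control probes on the same array, so that 0 marks that percentile. Agilent's software marks each spot as well above background or not. Levels of different probes are not comparable, so each probe is described against itself. Where the levels of a marker list are summed, the sum takes the brightest probe of every listed gene on the array, dim genes included. Bright probes weigh most in it, and the sum is also given without the brightest. On Mpzl3 probe A_55_P2124891 the log2 level was -2.47, -3.88, -3.32 and -2.33 in R6/2 replicates 1 to 4, against -0.76, -0.98, -0.17 and -1.61 in WT replicates 1 to 4. Every R6/2 array lay below every WT array, and the probe was well above background on all 8 arrays. The means were -3.0 ± 0.73 in R6/2 and -0.88 ± 0.59 in WT (SD, n = 4 each). The difference was -2.12 ± 0.43 (log2, SE), a level 4.35-fold lower in R6/2. It ranged from -2.36 to -1.83 when single arrays were left out. With another background correction, normexp, it was -1.27.

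The second variant 2 probe, A_55_P2076550, gave log2 levels of -1.60, -2.55, -3.11 and -2.93 in R6/2 replicates 1 to 4, against -0.32, -2.12, -2.35 and -2.06 in WT. All 8 arrays were well above background, and the groups overlapped because R6/2 replicate 1 was above 3 of the 4 WT arrays. The means were -2.55 ± 0.67 in R6/2 and -1.71 ± 0.94 in WT (SD, n = 4 each), a log2 difference of -0.84 ± 0.51 (SE). WT replicate 1 stood apart from the other WT arrays, and without it the difference was -0.37. The same array had the fewest probes well above background, and the part of this in the value was not tested.

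The variant 1 probe, A_51_P383530, showed no such direction. Its log2 levels were -4.28, -3.84, -1.78 and -2.85 in R6/2 replicates 1 to 4, against -1.32, -3.51, -4.85 and -3.45 in WT. The highest WT array was above, and the lowest below, every R6/2 array. The means were -3.19 ± 1.11 in R6/2 and -3.28 ± 1.46 in WT (SD, n = 4 each), with a log2 difference of +0.10 ± 0.79 (SE). The difference was -0.42 without WT replicate 3, the array on which this probe was not well above background, and +0.75 without WT replicate 1. Separate groups were thus seen on 1 of 3 Mpzl3 probes, and the differences between the probes were not tested.

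**Figure D1:**
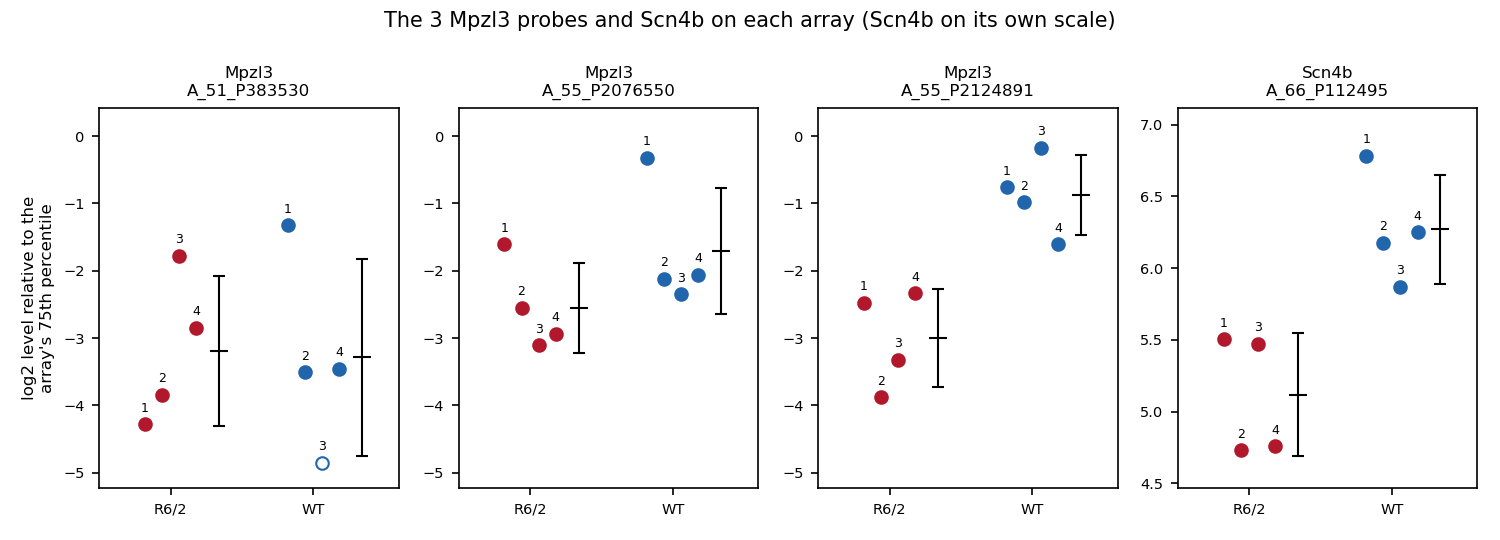
Log2 level relative to the array's 75th percentile (y axis) of the 3 Mpzl3 probes, on a common scale, and of the Scn4b probe, on its own scale, in R6/2 (red) and WT (blue) MSNs. Points are arrays numbered by replicate, filled where well above background, and bars are the mean ± SD (n = 4). The groups are separate on A_55_P2124891 and Scn4b and overlap on the other 2 Mpzl3 probes.

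The other adhesion genes were near or below the limit of detection. The Mpzl2 probe (chr9:44861985-44862044, plus strand) was well above background on R6/2 replicate 2 alone. Its log2 levels ran from -6.87 to -4.31 in R6/2 and from -6.84 to -4.23 in WT, so the groups spanned almost the same range. The Amica1 probe (chr9:44915486-44915545, plus strand) was well above background on WT replicate 4 alone. Its log2 levels were -5.84, -5.82, -6.96 and -5.53 in R6/2 replicates 1 to 4, against -4.79, -5.35, -4.05 and -3.36 in WT. Every R6/2 array lay below every WT array. No fold is given for Amica1, since no R6/2 array and 1 WT array measured it. Gm10684, a predicted gene on the opposite strand, has a probe 57 bases from that of Amica1.

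Of the CD3 chains, Cd3e was detected on all 8 arrays and the other 2 on few or none. Cd3e (chr9:44806828-44806887, minus strand) had log2 levels of -0.76, -1.03, -1.03 and -0.99 in R6/2 replicates 1 to 4, against -0.85, -0.56, -0.74 and -0.71 in WT. R6/2 replicate 1 fell inside the WT range and the other 3 R6/2 arrays lay below every WT array. The means were -0.95 ± 0.13 in R6/2 and -0.72 ± 0.12 in WT (SD, n = 4 each), a log2 difference of -0.24 ± 0.18 (SE).

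The Cd3d probe lies on the plus strand, with ends at chr9:44794171-44794402, which is wider than the probe itself. It was well above background on R6/2 replicates 1 and 4 and on WT replicate 2, with log2 levels of -4.13, -5.64, -4.96 and -3.45 in R6/2 replicates 1 to 4, against -4.83, -3.71, -5.01 and -4.86 in WT. The groups overlapped. The Cd3g probe (chr9:44777868-44777927, minus strand) was not well above background on any array. In T cells the product of Cd3e pairs with those of Cd3d and Cd3g, and of the 3 genes only Cd3e was well above background on every array.

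The markers of T cells were examined beside this. Of 13 listed T cell genes 11 passed the filter on dim probes, 8 with a positive and 3 with a negative difference, and the median difference was +0.14 (log2). None passed an adjusted p of 0.05 in limma, none had an unadjusted p under 0.05, and the methods' t-test called none. Summed over the list on the linear scale of the 75th percentile, the level was 9.10 to 12.9 in R6/2 arrays and 10.9 to 16.1 in WT arrays. The brightest probe was that of Cd4, and without it the sum was 3.49 to 5.18 in R6/2 arrays and 3.1 to 4.19 in WT arrays. Cd4 had a log2 level of 2.81 ± 0.38 in R6/2 and 3.25 ± 0.27 in WT (SD, n = 4 each). Cd8a was well above background on no array. The part of T cells in the Cd3e signal was not tested. Of 14 genes of the T cell receptor complex and its proximal signalling, all passed the filter, 9 with positive and 5 with negative differences (median +0.07 log2), and again none passed either threshold.

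Il10ra (chr9:45062237-45062296, minus strand) is 1 of 2 neighbours to the right of Scn4b. Its log2 levels were -2.34, -2.09, -2.44 and -1.55 in R6/2 replicates 1 to 4, against -1.80, -1.86, -1.99 and -1.29 in WT. R6/2 replicate 4 was above 3 WT arrays, and the other 3 R6/2 arrays were below all of them. The means were -2.10 ± 0.40 in R6/2 and -1.73 ± 0.31 in WT (SD, n = 4 each), a log2 difference of -0.37 ± 0.27 (SE). With single arrays left out the Il10ra difference ran from -0.56, without R6/2 replicate 4, the array alone on its slide, to -0.22, without WT replicate 4.

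Il10ra is also a gene of microglia and macrophages. Of 12 markers of these cells 10 passed the filter, 7 with positive and 3 with negative differences (median +0.13 log2), against 46.0% negative over all genes. None had an unadjusted p under 0.05, against 7.15% of all genes. The summed level of all 12 was 149 to 175 in R6/2 arrays and 180 to 200 in WT arrays. Without its brightest probe, that of Itgam, the sum was 27.1 to 33.7 in R6/2 arrays and 22.1 to 33.1 in WT arrays, so the separation of the sums came from Itgam. Itgam had a log2 level of 7.08 ± 0.12 in R6/2 and 7.29 ± 0.09 in WT (SD, n = 4 each). The part of these cells in the Il10ra signal was not tested, and in bulk RNA fewer cells of a type and less RNA per cell cannot be told apart. Of 9 other genes of the interleukin 10 pathway 5 passed the filter, 1 with a positive and 4 with negative differences (median -0.32 log2), against the same 46.0% negative. None passed either threshold, against 0.00372% of all genes at the adjusted and 7.15% at the unadjusted p. The ligand Il10 and the second receptor chain Il10rb were well above background on no array. Stat3, the transcription factor of the pathway, differed by -0.32 ± 0.24 (log2, SE; limma adjusted p = 0.802).

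Ube4a has 2 probes on the minus strand, and both were well above background on all 8 arrays. Probe A_55_P2443568 (chr9:44731501-44731560) had log2 levels of 1.94, 1.71, 2.77 and 1.93 in R6/2 replicates 1 to 4, against 2.25, 1.63, 1.66 and 2.19 in WT. The means were 2.09 ± 0.47 in R6/2 and 1.93 ± 0.33 in WT (SD, n = 4 each), a log2 difference of +0.15 ± 0.29 (SE). R6/2 replicate 3 was the highest of all arrays, and without it the difference was -0.07.

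Probe A_55_P2158627 (chr9:44745717-44745776) had log2 levels of -2.16, -1.64, -0.92 and -2.17 in R6/2, against -1.44, -1.53, -1.77 and -1.20 in WT, and a log2 difference of -0.24 ± 0.31 (SE). That difference was -0.51 without R6/2 replicate 3 and -0.09 without R6/2 replicate 1 or 4. The groups overlapped on both probes, whose differences had opposite signs. Of 9 other ubiquitin-chain genes that passed the filter, 3 had positive and 6 negative differences (median -0.07 log2), against 46.0% negative over all genes. None passed an adjusted p of 0.05 in limma, against 0.00372% of all genes. Prpf19, a U-box ligase of the spliceosome, was the 1 gene with an unadjusted p under 0.05, at -0.91 (log2, adjusted p = 0.658). Over all genes 7.15% had such a p. The Prpf19 probe was dim, at -4.05 ± 0.65 in R6/2 and -3.14 ± 0.30 in WT (SD, n = 4 each). It was well above background on only 3 arrays of each group, and the groups overlapped.

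Tmprss4 (chr9:44980979-44981038, minus strand) is the neighbour nearest to Scn4b, 18875 bases to its right. Its probe was well above background on R6/2 replicate 3 and WT replicate 2 alone, so no fold is given. Of 13 genes of other membrane serine proteases and of the epithelial sodium channel 5 passed the filter, and all 5 encode proteases. Of these, 3 had positive and 2 negative differences, against 46.0% negative over all genes. None had an unadjusted p under 0.05, against 7.15% of all genes.

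**Figure D2:**
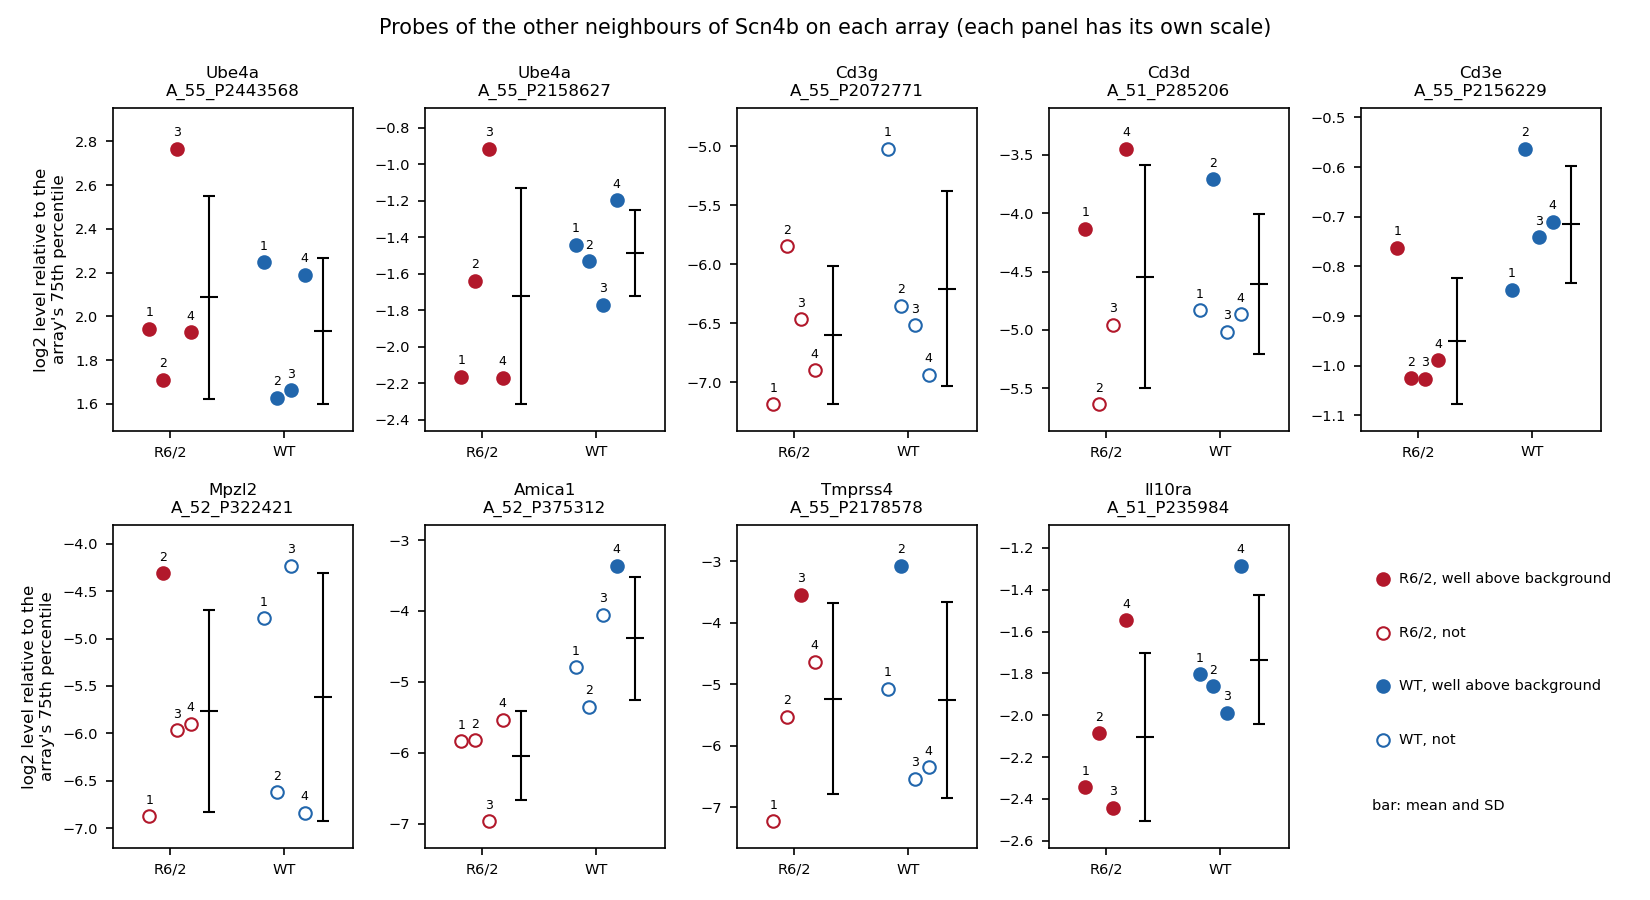
Log2 level relative to the array's 75th percentile (y axis, a separate scale in each panel) of the 9 probes of the other neighbours in R6/2 (red) and WT (blue) MSNs. Points are arrays numbered by replicate, filled where well above background and open where not, and bars are the mean ± SD (n = 4). Amica1 has separate groups with 1 filled point in 8, and the other 8 probes overlap.

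Of the 12 probes, 7 probes of 4 genes (Mpzl3, Cd3e, Il10ra and Ube4a) passed the filter of being well above background on at least 4 of 8 arrays, and 5 probes of 5 genes (Mpzl2, Amica1, Cd3d, Cd3g and Tmprss4) did not. Of the 7, the difference was negative for 5 and positive for 2, and among all 41379 probes that passed it was negative for 44.5%. Their median log2 difference was -0.24, with a range from -2.12 to +0.15, and the median over all probes that passed was +0.05. The groups were separate and lower in R6/2 for 1 of the 7, against 2.26% of all probes that passed, and separate and higher for 0 of the 7, against 2.31%. The genes were chosen on this contrast, so nothing is read from these counts. Apart from probe A_55_P2124891, the differences lay between -0.84 and +0.15.

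Scn4b itself is the anchor of the stretch. Its probe (chr9:44962045-44962104, plus strand) had log2 levels of 5.50, 4.73, 5.47 and 4.76 in R6/2 replicates 1 to 4, against 6.78, 6.17, 5.87 and 6.25 in WT. Every R6/2 array lay below every WT array. The means were 5.12 ± 0.43 in R6/2 and 6.27 ± 0.38 in WT (SD, n = 4 each), a log2 difference of -1.15 ± 0.29 (SE). It did not pass the test over all 26915 genes (limma adjusted p = 0.555), and the adjusted p ranged from 0.377 to 0.817 over the alternative settings. The sort selected cells by a reporter of this gene, and the part of the sort in its level was not tested.

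Genes of the same stretch that are not among the 9 were then compared. Within 500 kb on either side of the Scn4b probe 12 further genes passed the filter. None of the 12 passed an adjusted p of 0.05 in limma, against 0.00372% of all genes, the methods' t-test called none, and 1 had an unadjusted p under 0.05, against 7.15% of all genes. The adjusted p of the 12 ran from 0.555 to 0.999. The difference was negative for 9 and positive for 3, against 46.0% negative over all genes. Their median was -0.21, within a range from -1.08 to +0.63, and that over all genes was +0.03 (log2). The median of the stretch moved with the window, to -0.55 over the 4 genes within 250 kb and -0.08 within 1000 kb. It also moved with single arrays, to -0.36 without WT replicate 2, -0.13 without R6/2 replicate 4 and -0.10 without WT replicate 3 or 4. The groups were separate and lower in R6/2 for 1 gene, against 2.57% of all genes, and separate and higher for none, against 2.16%.

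The gene with separate groups was Tmem25, which encodes a membrane protein of the immunoglobulin superfamily, 360043 bases to the left of Scn4b. Its log2 levels were -1.82, -0.74, -1.27 and -1.44 in R6/2 replicates 1 to 4, against -0.34, -0.11, -0.40 and -0.56 in WT. The difference was -0.96 ± 0.26 (log2, SE; unadjusted p = 0.00459 and adjusted p = 0.555 in limma). Scn2b, the beta-2 subunit gene of the same sodium channels and the nearest gene with a probe past the filter on the left, 24041 bases away, had log2 levels of 2.50, 2.36, 2.87 and 2.30 in R6/2 against 2.90, 2.46, 2.68 and 3.07 in WT. The groups overlapped and the difference was -0.27 ± 0.22 (log2, SE; limma adjusted p = 0.821).

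The other named genes of the window differed in both directions, and none passed. Gm10684, 46617 bases to the left of Scn4b and so nearer to it than Tmem25, differed by -1.08 ± 0.54 (log2, SE; limma adjusted p = 0.729). Its probe was dim, with means of -4.77 ± 0.37 in R6/2 and -3.69 ± 1.16 in WT (SD, n = 4 each), and the groups overlapped. It was well above background on only 3 arrays of each group. This dim probe gave the lowest difference of the window and also lies within the 250 kb window. Fxyd6 and Fxyd2, which encode regulators of the sodium-potassium pump, lie side by side to the right of Scn4b, 242030 and 256177 bases away. Fxyd6 differed by -0.83 ± 0.49 (adjusted p = 0.768) and Fxyd2 by +0.63 ± 0.43 (adjusted p = 0.792), with +0.60 on a second Fxyd2 probe. Ift46, a gene of transport within cilia, differed by -0.50 ± 0.38 (adjusted p = 0.810), with -0.11 on a second probe. The signs were thus opposite for the adjacent genes Fxyd6 and Fxyd2, and the difference between those genes was not tested.

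**Figure D3:**
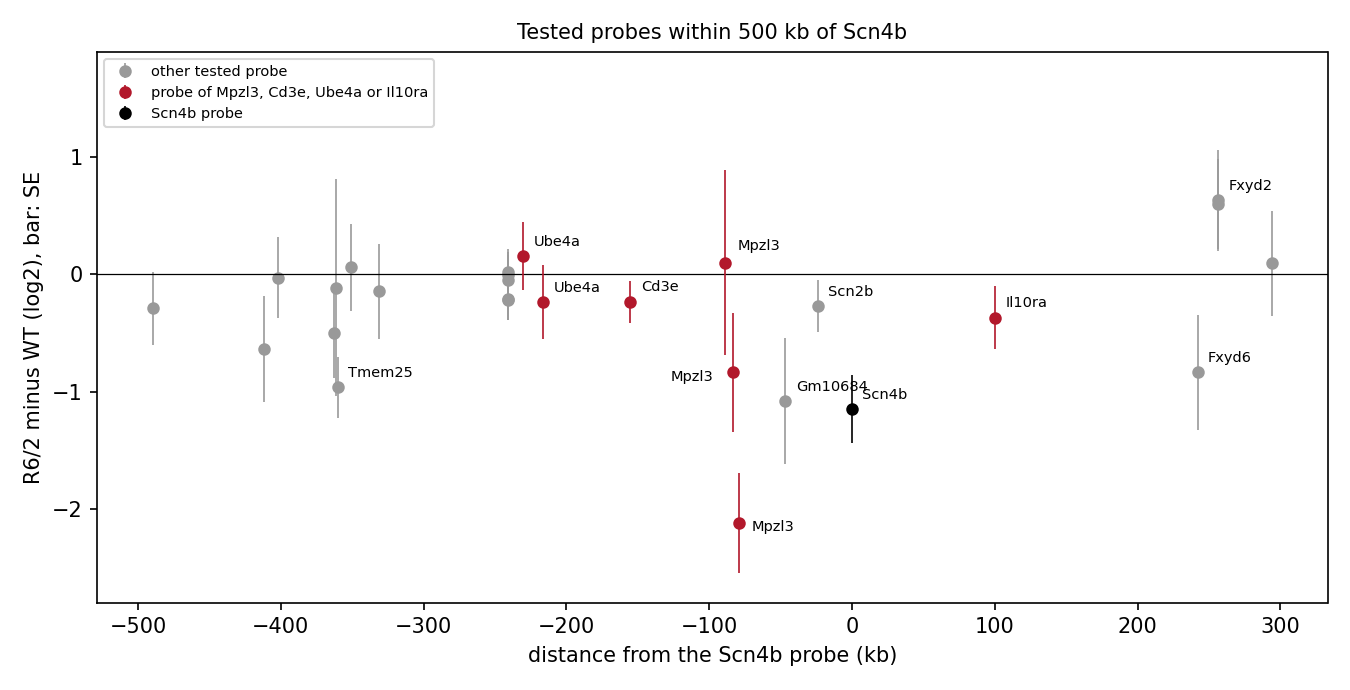
Log2 difference, R6/2 minus WT (y axis, bars are the SE), of each probe that passed the filter within 500 kb of Scn4b, against its distance from the Scn4b probe in kb (x axis, negative to the left). Red points are probes of the described neighbours, the black point is Scn4b and grey points are other genes. The Mpzl3 probe at -2.12 stands below all others, the other Mpzl3 probes lie at -0.84 and +0.10, and Fxyd2 lies above 0.

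The 5 genes with the profile most like that of Mpzl3 probe A_55_P2124891 over the 8 arrays were also listed. Likeness was measured as the root mean square difference, over the 8 arrays, between the mean-centred log2 profile of probe A_55_P2124891 and that of every gene, and its median over all genes was 1.28. The closest were the transcript ENSMUST00000111423 at 0.41, Rhcg at 0.44, the unnamed probe A_55_P1994843 at 0.47, the transcript named A230055C15 at 0.55 and an intergenic transcript (probe A_30_P01028618) at 0.56. None of the 5 lies on chromosome 9. They were picked from 26915 genes, of which only 12 are the further genes within 500 kb of Scn4b. Their places therefore cannot show whether the stretch moves together. Rhcg, an ammonia channel of the kidney, had log2 levels of -2.90, -3.54, -3.48 and -1.71 in R6/2 replicates 1 to 4, against -0.43, -1.18, -0.95 and -1.31 in WT. In R6/2, replicate 4 was the highest array both for Rhcg and for the Mpzl3 probe. A230055C15 differed by -2.46 and Rhcg by -1.94 (log2), and these genes were picked for their likeness, so their differences are not tested.

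**Figure D4:**
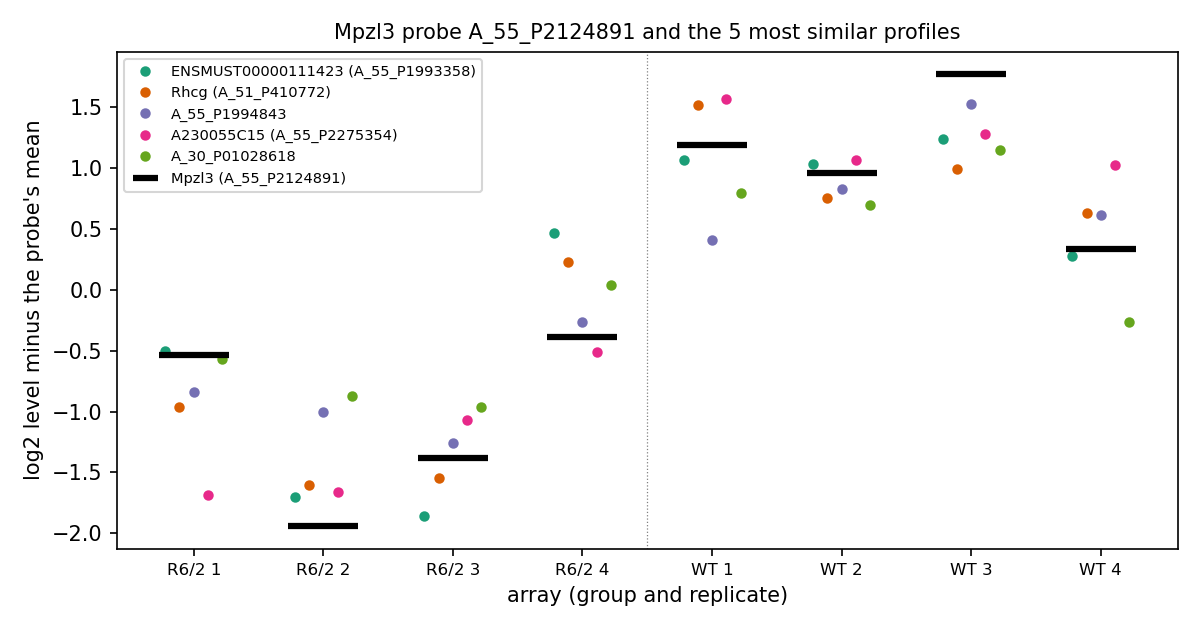
Log2 level minus the probe's own mean (y axis) on each R6/2 and WT array (x axis) for Mpzl3 probe A_55_P2124891 (black bars) and the 5 probes with the most similar profile (coloured points, set side by side within an array). All 6 lie below their own mean in R6/2 replicates 1 to 3 and above it in WT replicates 1 to 3.

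Facts of the whole series bear on the dim neighbours. The 75th percentile of the signal was 314 to 383 intensity units. Probes well above background made up 76.0% ± 2.00 in R6/2 and 66.6% ± 11.5 in WT (SD, n = 4 each; exact permutation p = 0.114, two-sided, over 70 assignments), with 50.1% in WT replicate 1, whose limit of detection was the highest, at a log2 level of -2.78. R6/2 replicate 4 was alone on a second slide and scan, so slide and genotype cannot be compared there. Without it the log2 differences were -2.34 for Mpzl3 probe A_55_P2124891, -0.22 for Cd3e and -1.03 for Scn4b. All 12 listed MSN markers passed the filter and had negative differences (median -0.64 log2), against 46.0% negative over all genes. None passed an adjusted p of 0.05 in limma, and 8 had an unadjusted p under 0.05, against 7.15% of all genes. This list was chosen with earlier results of these data known, so nothing is read from these counts. The summed level of the MSN markers was 677 to 757 in R6/2 arrays and 987 to 1194 in WT arrays. Without the brightest probe, that of Penk, it was 460 to 518 in R6/2 arrays and 676 to 792 in WT arrays. All 6 oligodendrocyte markers also had negative differences (median -0.84 log2), against the same 46.0% of all genes, and none had an unadjusted p under 0.05. They summed to 6.10 to 13.5 in R6/2 arrays and 6.24 to 41.2 in WT arrays. Without Mbp they summed to 1.38 to 4.09 in R6/2 arrays and 2.42 to 30.3 in WT arrays. The part of these shifts in the neighbours' values was not tested.

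Markers of other cells that use these genes gave the following values. Of 8 epithelial markers 6 passed the filter. All 8 summed to 2.15 to 2.42 in R6/2 arrays and 2.21 to 2.65 in WT arrays. Without Cldn7 they summed to 0.474 to 0.789 in R6/2 arrays and 0.471 to 0.73 in WT arrays. Cdh1 was well above background on no array. Of the granulocyte and monocyte markers 6 were on the array and 2 passed. The summed levels of the 6, 205 to 251 in R6/2 arrays and 189 to 247 in WT arrays, were nearly all Csf3r. Without its probe they were 0.0932 to 0.227 in R6/2 arrays and 0.0944 to 0.198 in WT arrays. Ly6g, S100a8 and S100a9 were well above background on no array. Astrocyte markers summed to 2.12 to 5.24 in R6/2 arrays and 1.95 to 3.85 in WT arrays, or without Aldoc to 1.23 to 3.30 in R6/2 arrays and 1.44 to 1.76 in WT arrays. Endothelial markers summed to 2.98 to 3.98 in R6/2 arrays and 3.46 to 5.0 in WT arrays, or without Kdr to 0.562 to 1.03 in R6/2 arrays and 0.477 to 0.914 in WT arrays. None of these genes had an unadjusted p under 0.05, against 7.15% of all genes. Of 11 relatives of Mpzl3, Mpzl2 and Amica1 with immunoglobulin domains, all passed the filter. Of these, 7 had positive and 4 negative differences (median +0.11 log2), against 46.0% negative over all genes. None passed an adjusted p of 0.05 in limma, against 0.00372% of all genes. Esam, an endothelial adhesion molecule, was the 1 with an unadjusted p under 0.05, against 7.15% of all genes. It differed by -1.82 (log2, limma adjusted p = 0.67), whereas Mpzl1 differed by +0.67 (adjusted p = 0.729). The Esam probe was dim in R6/2, at -3.63 ± 1.51 against -1.81 ± 0.73 in WT (SD, n = 4 each). It was well above background on 3 R6/2 and 4 WT arrays. Every R6/2 array lay below every WT array, a separation seen in 2.57% of all genes.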

How the data were processed

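RNA of sorted MSNs was hybridised to 1-colour Agilent mouse arrays, 4 of R6/2 and 4 of WT mice. Per the file headers, the deposited intensity values were made by Feature Extraction 10.7.3.1 of Agilent, which subtracted background and did not scale arrays to each other. The authors' deposited log2 values, relative to the 75th percentile, served as an alternative. In R6/2 replicate 3, 1 garbled line was left out.

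Processed intensity was taken to log2, outlier spots were left out, spots of a probe averaged and the 75th percentile of non-control probes subtracted. Probes well above background on at least 4 of 8 arrays were kept (41379), and a gene was its kept probe with the highest mean (26915 genes). Symbols came through accessions (26756 probes), symbols (3824) or older symbols (639), and 24462 probes kept the file's name. Differences are R6/2 minus WT from limma 3.58.1 on R 4.3.3, tested on simulated data, with Benjamini-Hochberg adjustment over all genes and a threshold of 0.05. Alternatives were normexp with an offset of 50, quantile normalization, other filters, outlier spots kept, the mean of a gene's probes, the unpaired t-test that the authors' table names, other windows, a replicate block and each array left out. The neighbours, lists and the rule for named genes were chosen with earlier results of these data known. That rule took the 9 neighbours, Scn4b, its nearest kept gene on each side, the 6 genes of the window with the smallest p, the 5 profiles most like Mpzl3's brightest probe and markers at the extremes of their lists. The genes named from the pathway lists were chosen after their values were seen. Correlations of same-numbered arrays' deviations were 0.03, -0.046, 0.003 and -0.005, so the numbers do not pair the arrays. A gene of 1 list is not reported by name here.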

Additional observations from a re-analysis of the deposited data

Results flagged for a closer look

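In 2 of 38 groups of 4 arrays, 1 array stood far from the other 3, beyond Dixon's critical value for the gap over the range, and chance gives about 1 in 20. On the Cd3e probe, R6/2 replicate 1 had a log2 level of -0.76, above the other R6/2 arrays, and the gap was 0.86 of the range. On Mpzl3 probe A_55_P2076550, WT replicate 1 had a log2 level of -0.32, above the other WT arrays, and the gap was 0.855 of the range.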

How the results depend on the processing

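The number of genes called over the whole array was 1, and it was 8 with normexp, 8 with quantile normalization, 6 with probes well above background on all arrays, 5 with the mean of a gene's probes, 0 with the methods' t-test (1857 at an unadjusted p under 0.05), 0 with a replicate block (1833 at an unadjusted p under 0.05) and 0 to 3 with single arrays left out. The replicate numbers are not known to pair the arrays, and with 4 arrays a group the block leaves every mean difference as it is by construction. The neighbours' probes with a positive difference numbered 2, against 1 with normexp, with quantile normalization and with the all-array filter, 4 of 12 without a filter, and 0 to 2 with single arrays left out. Those lower in R6/2 with separate groups, a count added after seeing the data, numbered 1, against 2 without a filter and 1 to 3 with single arrays left out: 3 without R6/2 replicate 1, 2 without R6/2 replicate 4 and 2 without WT replicate 1. Their median log2 difference ran from -0.42 to -0.22 with single arrays left out. The median of the other genes around Scn4b was -0.55 over the 4 genes of a 250 kb window and -0.08 in a 1000 kb window, and -0.36 (without WT replicate 2) to -0.10 (without WT replicate 3 or 4) with single arrays left out, and 0 of them were called under each of 18 alternatives. Mpzl3 probe A_55_P2124891 was at -1.27 with normexp and kept its sign under the 12 alternatives that can move the difference of a single probe, as did A_55_P2076550, Cd3e, Il10ra, the second Ube4a probe (A_55_P2158627) and Scn4b. Mpzl3 probe A_51_P383530 kept its sign under 7 of those 12, with -0.11 under normexp and -0.05 under quantile normalization, and Ube4a probe A_55_P2443568 under 11 of 12. The authors' values and outlier spots kept are among those 12 but hardly differ from the main setting. For A_55_P2124891 they gave -2.123 and -2.1217, against -2.1214. Shifts this small could not change the sign of any of these probes. The causes of these shifts were not tested. The number of arrays limits the precision, and signal near background limits Mpzl2, Amica1, Cd3d, Cd3g and Tmprss4.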
